A study of Mus musculus with 24 samples.

Results

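The genes of serine palmitoyltransferase were followed across mouse prostate organoids and anterior prostate tissue that differed in their Brca1 label. The set was a fixed list of 8 genes: the small subunits Sptssb and Sptssa, the large subunits Sptlc1, Sptlc2 and Sptlc3, and the inhibitors Ormdl1, Ormdl2 and Ormdl3. All 8 were found by symbol among the 35519 genes with an annotated transcript in the files. The list was drawn up with measured values of these libraries in view, and Sptssb heads it. Sptssb is therefore described here without a test, and tests are given for the other 7.

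Serine palmitoyltransferase joins serine to a fatty acyl-CoA, usually palmitoyl-CoA, and so starts the synthesis of all sphingolipids, including ceramide and sphingomyelin. Its catalytic core pairs SPTLC1 with SPTLC2 or SPTLC3, and a small subunit raises the activity of that core and helps to set which acyl-CoA it accepts. The small subunit encoded by Sptssa favours palmitoyl-CoA, whereas the one encoded by Sptssb allows longer acyl chains. ORMDL proteins bind the complex in the endoplasmic reticulum and hold it back when ceramide is plentiful. Sptssb is also known as Admp, a name given because androgen lowers its message in mouse prostate.

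The data comprised 24 RNA-seq libraries in 9 groups. Of these, 6 were prostate anterior lobe tissue, with 2 libraries each labelled Brca1-/- (KO), Brca1+/- (HET) and wild type (WT). The other 18 were organoids, epithelial cultures grown in Matrigel from anterior lobe cells of 3-month-old mice, with 3 libraries for each of the KO, HET and WT labels in medium without and with dihydrotestosterone (DHT), the active androgen. Both media are listed with EGF, Noggin, R-Spondin, A83-01 and Y27632. The labels give neither the promoter behind the Brca1 deletion nor the source animal or culture of each replicate, and the tests therefore rest on a spread that may be technical. Organoid libraries held 11965815 to 58445041 estimated reads and tissue libraries 30895270 to 46222580.

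Brca1 itself did not follow its labels in organoids. It averaged 10.9 ± 1.1 CPM (counts of a library scaled to a common total) in KO-labelled, 16.9 ± 1.8 CPM in HET-labelled and 13.7 ± 0.561 CPM in WT-labelled organoids with DHT (SD, n = 3 each). The HET-labelled libraries were thus the highest, and a gene sum cannot show whether part of the gene was deleted. Genotype names below are the labels as given. Fkbp5, an androgen receptor target, fell on DHT withdrawal in KO-, HET- and WT-labelled organoids, with log2 changes of -1.45, -1.42 and -1.83 and adjusted p-values of 0.000108, 0.000109 and 1.21e-05 (edgeR). Levels between genes are given in TPM, which scale transcripts per length to a common total, and tests rest on counts. A gene is called when its p-value from edgeR's quasi-likelihood test, adjusted by Benjamini-Hochberg over all genes tested, is under 0.05.

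Sequences just upstream of 3 of the genes are printed because their CG content differs. Sptssb varied most in organoids, Sptssa encodes the other small subunit and was steadier, and Sptlc3 differed most between tissue and organoids. Only bases lying before both the RefSeq and the GENCODE start are shown, 5′ to 3′ on the gene's strand, from RefSeq on GRCm38.p6, and capitals mark CG dinucleotides.
Sptssb (chr3:69859941-69860144, minus strand): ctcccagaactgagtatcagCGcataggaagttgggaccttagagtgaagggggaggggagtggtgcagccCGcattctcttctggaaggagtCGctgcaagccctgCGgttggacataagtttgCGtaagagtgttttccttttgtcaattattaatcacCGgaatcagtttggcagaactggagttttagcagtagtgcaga
Sptssa (chr12:54656574-54656822, minus strand): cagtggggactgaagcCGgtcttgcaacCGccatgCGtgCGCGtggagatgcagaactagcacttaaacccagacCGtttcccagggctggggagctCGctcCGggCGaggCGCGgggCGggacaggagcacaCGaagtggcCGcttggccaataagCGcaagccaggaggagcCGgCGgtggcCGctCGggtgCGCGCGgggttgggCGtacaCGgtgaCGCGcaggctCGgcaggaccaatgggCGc
Sptlc3 (chr2:139493663-139493912, plus strand): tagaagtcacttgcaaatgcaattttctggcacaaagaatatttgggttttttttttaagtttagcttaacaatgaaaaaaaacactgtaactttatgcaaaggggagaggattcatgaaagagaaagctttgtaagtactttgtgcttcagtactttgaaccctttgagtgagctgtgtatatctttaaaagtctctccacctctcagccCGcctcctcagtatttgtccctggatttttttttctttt
The full 250 bases upstream of the RefSeq start held 9 CG dinucleotides for Sptssb, 28 for Sptssa and 1 for Sptlc3, against a median of 6 over 32851 mouse promoters of the same length. Sptlc1, Sptlc2, Ormdl1, Ormdl2 and Ormdl3 held 22, 11, 25, 17 and 18. The androgen receptor hexamer AGAACA, searched on both strands as AGAACA or TGTTCT, was in none of the 8 windows and in 16.1% of all promoters. The full palindromic site, this hexamer and its reverse complement 3 bases apart, was also in none of the 8 and in 0.00913% of all promoters. No match says only that these letters were not in this window.

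Sptssb (ENSMUSG00000043461.13) lies on chr3:69819542-69859940 on the minus strand and was low in every KO- and HET-labelled organoid library. Without DHT it stood at 0.22, 0.79 and 0.39 TPM in KO-labelled organoids, 0.35, 0.30 and 0.22 TPM in HET-labelled organoids, and 6.13, 11.9 and 10.1 TPM in WT-labelled organoids. With DHT it stood at 0.67, 1.04 and 0.94 TPM in KO-labelled organoids, 0.41, 0.66 and 0.15 TPM in HET-labelled organoids, and 2.04, 10.9 and 12.4 TPM in WT-labelled organoids. In either medium the altered labels did not overlap the WT label. The lowest WT-labelled value, 2.04 TPM, came from the library with the fewest reads, 11965815, in which the single gene Lars2 took 28.1% of all reads.

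**Figure D1:**
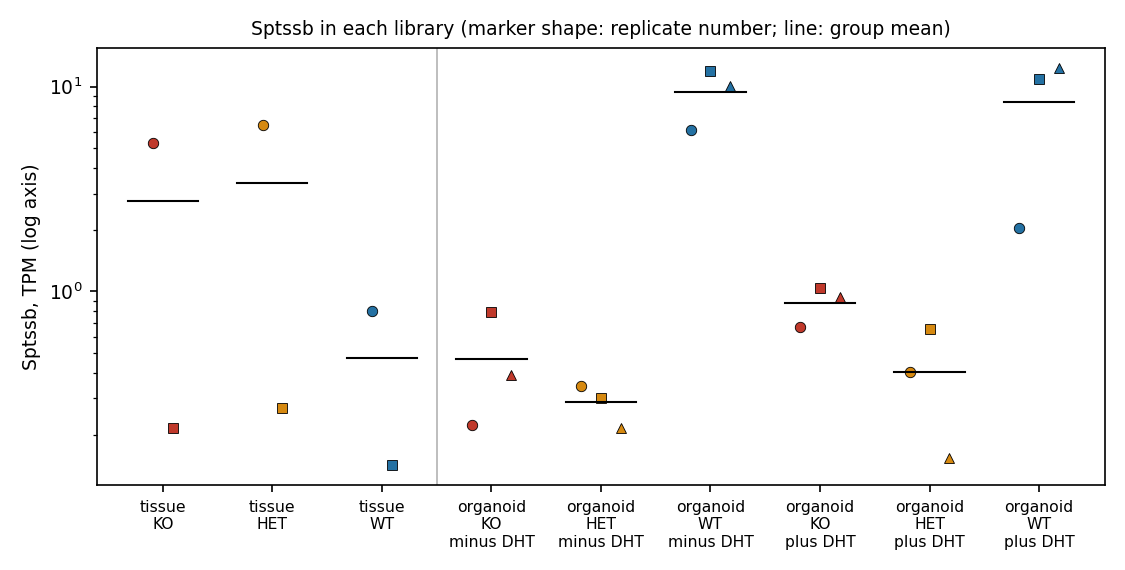
Sptssb level in TPM on a log axis in each of the 24 libraries, by group, with marker shape for replicate number and a line at the group mean. The 12 KO- and HET-labelled organoid libraries lie between 0.15 and 1.04 TPM and the 6 WT-labelled ones between 2.04 and 12.4 TPM, while tissue libraries numbered 1 lie above those numbered 2.

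The log2 change of Sptssb from the edgeR fit was -3.89 (SE 0.487) for KO over WT without DHT and -3.48 (SE 0.471) with DHT. For HET over WT it was -4.05 (SE 0.493) without DHT and -4.45 (SE 0.51) with DHT. In the same order these are levels 14.8-, 11.1-, 16.6- and 21.8-fold lower. The KO and HET labels differed by less than this, with KO over HET at 0.16 (SE 0.516) without DHT and 0.97 (SE 0.517) with DHT. The KO- and HET-labelled libraries held only 4 to 32 estimated reads for Sptssb, against 24 to 348 in WT-labelled organoids, so levels within the low groups are imprecise. Sptssb was chosen with values of this kind in view, so they are given as a description.

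On DHT withdrawal the fitted change of Sptssb on counts was smaller than its standard error in each label. The log2 change, minus over plus DHT, was -0.38 (SE 0.495) in KO-labelled, 0.43 (SE 0.54) in HET-labelled and 0.04 (SE 0.411) in WT-labelled organoids, and 0.03 (SE 0.277) as the mean of the 3. For each label the libraries with and without DHT overlapped in CPM. These values moved when transcript length was taken into account. With length offsets they were -0.90 in KO-labelled, -0.53 in HET-labelled and -0.46 as the mean. That KO value is larger in size than 0.495, the standard error of the fit without offsets. On log2(TPM + 0.1), where 0.1 TPM is a pseudocount, the same values were -0.89, -0.26 and -0.23.

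Sptssb is annotated with 2 main transcripts that encode the same 76 codons, a longer one with 3 exons and 1795 bases and a shorter one with 4 exons and 772 bases. The longer transcript ranged over 0.052 to 0.379 TPM in KO-labelled, 0.028 to 0.347 TPM in HET-labelled and 1.28 to 3.25 TPM in WT-labelled organoids. Its ranges in the altered labels did not reach the WT range. The shorter transcript reached at most 0.885 TPM in KO-labelled and 0.561 TPM in HET-labelled organoids, against up to 9.96 TPM in WT-labelled ones. It was listed at 0 in 1 KO-labelled library and all 3 HET-labelled libraries without DHT, and in 1 WT-labelled library, the one with the fewest reads.

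No change was called for the nearest tested genes on either side of Sptssb. Nmd3, a ribosome export factor gene 63.2 kb away and the nearest tested gene on one side, had log2 changes of 0.18 and -0.06 for KO over WT without and with DHT, and of 0.08 and -0.22 for HET over WT. Pdcd10, 5660 kb away on the other side, ranged from 0.20 to 0.43. The edgeR adjusted p-values ran from 0.477 to 0.97.

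Tissue gave another order for Sptssb. It stood at 5.29 and 0.22 TPM in KO-labelled tissue, 6.48 and 0.27 TPM in HET-labelled tissue, and 0.81 and 0.14 TPM in WT-labelled tissue. In each label the library numbered 1 was the higher one, and the 3 labels overlapped. Library 1 was also higher in all 3 labels for Sptssa, Sptlc1, Sptlc3 and Ormdl1, and lower in all 3 for Ormdl3. Of the 13758 genes averaging at least 1 TPM in tissue, 33.7% were higher and 9.1% lower in library 1 in all 3 labels. The log2 change in tissue was 2.22 (SE 1.74) for KO over WT, 2.31 (SE 1.75) for HET over WT and -0.09 (SE 1.63) for KO over HET, and leaving out a single library placed the first 2 between -0.55 and 3.13 and between -1.69 and 3.26.

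Against organoids with DHT, Sptssb in tissue had log2 changes of 1.63 (SE 1.13) for KO, 2.72 (SE 1.18) for HET and -4.01 (SE 1.36) for WT. The KO- and HET-labelled tissue libraries overlapped their organoids, and the changes became -1.17 for KO without tissue KO library 1 and -1.33 for HET without tissue HET library 1. Tissue HET library 1 and WT library 2 carried seminal vesicle transcripts, with 58030 and 165300 TPM summed over 6 seminal vesicle genes, against 4.65 to 23.2 TPM in the other 4 and at most 0.15 TPM in organoids. TPM is a share, so these transcripts lower every other TPM in those 2 libraries. Their part in the result was not tested further. In bulk tissue, fewer cells of a type and less RNA per cell cannot be told apart.

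Ordered by mean TPM, Sptssb was highest in WT-labelled organoids without DHT and then in WT-labelled organoids with DHT, and these neighbours overlapped. HET- and KO-labelled tissue followed, each with 1 high and 1 low library. KO-labelled organoids with DHT, WT-labelled tissue, KO-labelled organoids without DHT, HET-labelled organoids with DHT and HET-labelled organoids without DHT came last. The ranges of every neighbouring pair in this order overlapped, whereas the 6 WT-labelled organoid libraries lay above all 12 altered ones.

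The other small subunit, Sptssa (ENSMUSG00000044408.7, chr12:54645392-54656573, minus strand), was far more abundant and steadier. Without DHT it stood at 84.2, 71.3 and 61.0 TPM in KO-labelled, 73.9, 66.2 and 55.3 TPM in HET-labelled and 60.9, 58.7 and 67.0 TPM in WT-labelled organoids. With DHT it stood at 82.6, 80.8 and 83.9 TPM in KO-labelled, 82.1, 65.5 and 79.2 TPM in HET-labelled and 88.8, 69.0 and 78.3 TPM in WT-labelled organoids. The libraries without and with DHT overlapped in the KO and HET labels but not in the WT label, where those without DHT were lower. As a share of the summed TPM of both small subunits, Sptssb held 0.193% to 1.27% in KO- and HET-labelled organoids, with a median of 0.565%, and 2.25% to 16.8% in WT-labelled organoids, with a median of 13.3%. In tissue this share ran from 0.248% to 5.97%.

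**Figure D2:**
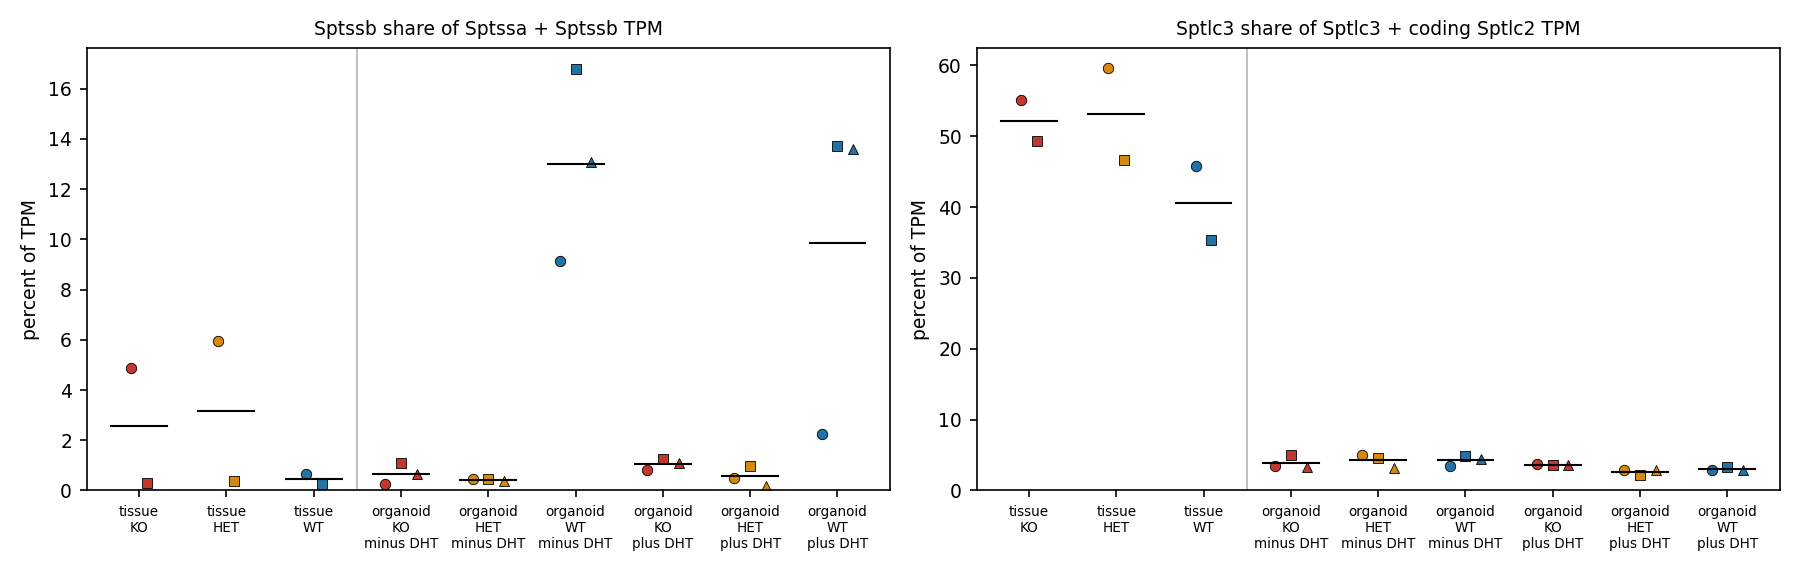
Percent of TPM held by Sptssb among the small subunits (left) and by Sptlc3 among Sptlc3 and the coding Sptlc2 transcript (right) in each library, with marker shape for replicate number and a line at the group mean. The Sptssb share is at most 1.27% in KO- and HET-labelled organoids, and the Sptlc3 share is 35.3% to 59.6% in tissue against 2.15% to 4.94% in organoids.

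Among the other 7 genes, Sptlc1 (ENSMUSG00000021468.8, chr13:53332748-53377397, minus strand), the subunit common to all forms of the enzyme, was the one that passed the test between genotype labels. Without DHT it averaged 23.6 ± 0.829 CPM in HET-labelled and 28.5 ± 0.369 CPM in WT-labelled organoids (SD, n = 3 each). With DHT it averaged 21.3 ± 1.5 CPM in HET-labelled and 26.8 ± 1.3 CPM in WT-labelled organoids. In both media every HET-labelled library lay below every WT-labelled one. The log2 change was -0.27 (SE 0.0785, edgeR adjusted p = 0.0443) without DHT and -0.33 (SE 0.0793, edgeR adjusted p = 0.016) with DHT.

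This made 1 of 7 genes called for HET over WT in each medium. Of all 15427 genes tested 3.29% were called lower and 7.81% in either direction without DHT, and 3.47% lower and 7.51% in either direction with DHT. The call without DHT was lost in 14 of the 18 fits that left out 1 organoid library, with adjusted p-values up to 0.138, and in a fit of only the groups compared, with an adjusted p of 0.338. The call with DHT was lost without HET library 2 (adjusted p = 0.0866) or WT library 2 (adjusted p = 0.08) of that medium, with no filter on low counts (adjusted p = 0.0909) and in a fit of only the groups compared (adjusted p = 0.0696). The direction held in every one of these fits. Some listed markers of other cell types were also lower in HET-labelled organoids. Fibroblast and smooth muscle markers summed to 19.9 to 35.5 TPM in KO-labelled, 7.46 to 10.9 TPM in HET-labelled and 19.4 to 27.8 TPM in WT-labelled organoids, and 1 of the 4 tested was called lower for HET over WT in each medium. The highest of these genes was Dcn, at 5.89 to 32.1 TPM over all organoids, and the others each stayed at or below 4.43 TPM. The sum thus mainly follows this gene. Of 5 basal markers 1 was called lower for HET over WT with DHT and 0 without, with medians of -0.336 and -0.255. Basal sums overlapped between the HET and WT labels in both media. Other lists went the other way with DHT. Leukocyte sums, mostly Cd68, were 78.6 to 91.2 TPM in HET-labelled and 63.1 to 70.8 TPM in WT-labelled organoids. Luminal sums were 2992 to 3093 TPM and 2340 to 2691 TPM. Both sums overlapped between these labels without DHT. The part of these markers in the HET values here and in the pathway lists was not tested.

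In KO-labelled organoids Sptlc1 averaged 29.0 ± 0.657 CPM without DHT and 26.0 ± 1.34 CPM with DHT, and the libraries overlapped WT-labelled ones in both media. KO over HET was 0.30 (SE 0.0787, edgeR adjusted p = 0.0548) without DHT and 0.29 (SE 0.0787, edgeR adjusted p = 0.0552) with DHT, just short of the threshold; DESeq2 called both. For KO over HET, 0 of 7 genes were called, against 2.92% of all genes without DHT and 3.54% with DHT. For KO over WT, 0 of 7 were called by edgeR or DESeq2, against 4.8% of all genes without DHT and 4.11% with DHT, and Sptlc2 with DHT was the 1 gene with an unadjusted p under 0.05.

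Sptlc2 (ENSMUSG00000021036.10, chr12:87305058-87388355, minus strand), the catalytic partner used in most tissues, ranged from 82.5 to 104 TPM over the 18 organoid libraries. Most of that TPM belonged to 2 short transcripts annotated as non-coding. The coding transcript stood at 7.71 to 13.2 TPM in organoids and took 49.2% to 63.9% of the gene's reads. With DHT the log2 change of the gene sum for KO over WT was -0.24 (SE 0.0815, edgeR adjusted p = 0.145), and the libraries overlapped in TPM though not in CPM.

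Sptlc3 (ENSMUSG00000039092.9, chr2:139493913-139637674, plus strand), whose product makes sphingoid bases of other chain lengths, was low in organoids. It ranged from 0.207 to 0.558 TPM over all 18, with KO-labelled groups at 0.302 to 0.492 TPM, HET-labelled at 0.207 to 0.447 TPM and WT-labelled at 0.337 to 0.558 TPM. These ranges overlapped, and no comparison of labels in organoids was called for it. Each organoid library held only 5 to 39 estimated reads of Sptlc3, so these levels are imprecise.

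The inhibitor genes showed no called change between labels in organoids. Ormdl1 (ENSMUSG00000026097.9, chr1:53297095-53310309, plus strand) ranged from 9.78 to 18.9 TPM, Ormdl2 (ENSMUSG00000025353.5, chr10:128817902-128821645, minus strand) from 37.6 to 63.3 TPM and Ormdl3 (ENSMUSG00000038150.7, chr11:98581256-98587368, minus strand) from 20.2 to 52.4 TPM. Ormdl3 lies 2.9 Mb from Brca1 on the same chromosome. With DHT it stood at 38.7, 52.4 and 43.1 TPM in HET-labelled and 24.6, 38.3 and 33.8 TPM in WT-labelled organoids, and every HET-labelled library was above every WT-labelled one. Its log2 change there was 0.52 (SE 0.209, edgeR adjusted p = 0.178). An alternative fit with replicate number as a block did call it (0.52, edgeR adjusted p = 0.0318).

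**Figure D3:**
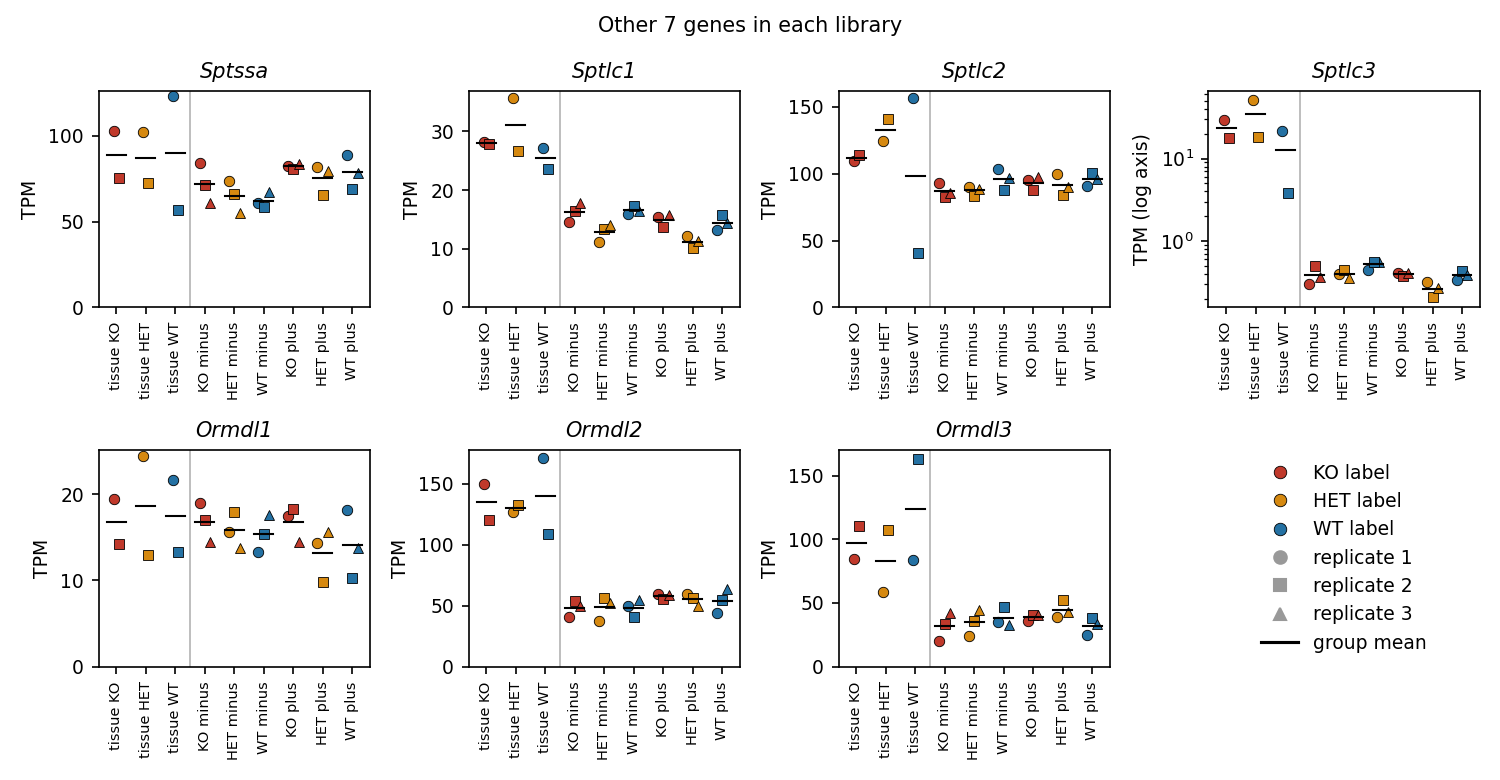
Levels in TPM of the other 7 genes in each library, by group, with a log axis for Sptlc3 only, colour for the genotype label, marker shape for replicate number and a line at the group mean. Sptlc1 is lower in HET-labelled than in WT-labelled organoids in both media, and Sptlc3 is below 0.56 TPM in all organoids and at 3.83 TPM or more in all tissue libraries.

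Ormdl3 was lowest, within its label and medium, in the 3 organoid libraries with the fewest reads. These were KO library 1 without DHT (20.2 TPM), HET library 1 without DHT (24.4 TPM) and WT library 1 with DHT (24.6 TPM). Sptlc1 was also the lowest of its group in these 3, at 14.6, 11.2 and 13.2 TPM in the same order. So was Ormdl2, at 40.6, 37.6 and 43.9 TPM. In the same 3 libraries Sptssa was the highest of its group, at 84.2, 73.9 and 88.8 TPM. Mitochondrial genes took 10.01% of reads in that KO library, 9.43% in that HET library and 2.70% in that WT library, against a median of 3.06% over organoids. With the mitochondrial share as a covariate, Ormdl3 was called for HET over WT with DHT, at 0.58 (edgeR adjusted p = 0.00377), in a fit that called 2727 genes against 1158. Reads of Ormdl2 are uncertain, because it overlaps Sarnp and Dnajc14 on the opposite strand and the files do not say whether strand was used, and Ormdl1 overlaps Gm28778 on the same strand.

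On DHT withdrawal 0 of the 7 genes were called in any label. The share of all genes called was 0.557% in KO-labelled, 0.707% in HET-labelled and 1.3% in WT-labelled organoids, and 4.96% for the mean of the 3 labels. At an unadjusted p under 0.05 there were 0, 0 and 1 of the 7 in the KO, HET and WT labels and 4 for their mean, where 1085, 1295, 1245 and 2378 of all 15427 genes had one. DESeq2 called 1, Sptlc1, for the mean. Sptssa had a mean log2 change of -0.28 (SE 0.108, edgeR adjusted p = 0.193). It was called, at -0.44 (edgeR adjusted p = 0.000322), once the mitochondrial share was a covariate, in a fit that called 3267 genes against 765, and at -0.36 (edgeR adjusted p = 0.0196) without the 3 libraries with the fewest reads. Sptlc1 had a mean change of 0.13 (SE 0.0455, edgeR adjusted p = 0.144) and Ormdl2 of -0.21 (SE 0.0754, edgeR adjusted p = 0.149).

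The withdrawal responses of the labels were also compared directly, HET minus WT and KO minus WT. No gene of the whole table was called by edgeR in either comparison, 0% of those tested, although 433 and 417 genes had an unadjusted p under 0.05 and DESeq2 called 6 in each. None of the 7 genes had an unadjusted p under 0.05 in either. Their differences ran from -0.58 for Ormdl3 to 0.20 for Sptssa for HET minus WT, and from -0.43 for Ormdl3 to 0.30 for Sptssa for KO minus WT. Sptssb differed by 0.39 (SE 0.676) for HET minus WT and -0.41 (SE 0.642) for KO minus WT. The first changed sign, to -0.60 with length offsets and -0.72 on log2(TPM + 0.1). The second became -1.35 on log2(TPM + 0.1).

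**Figure D4:**
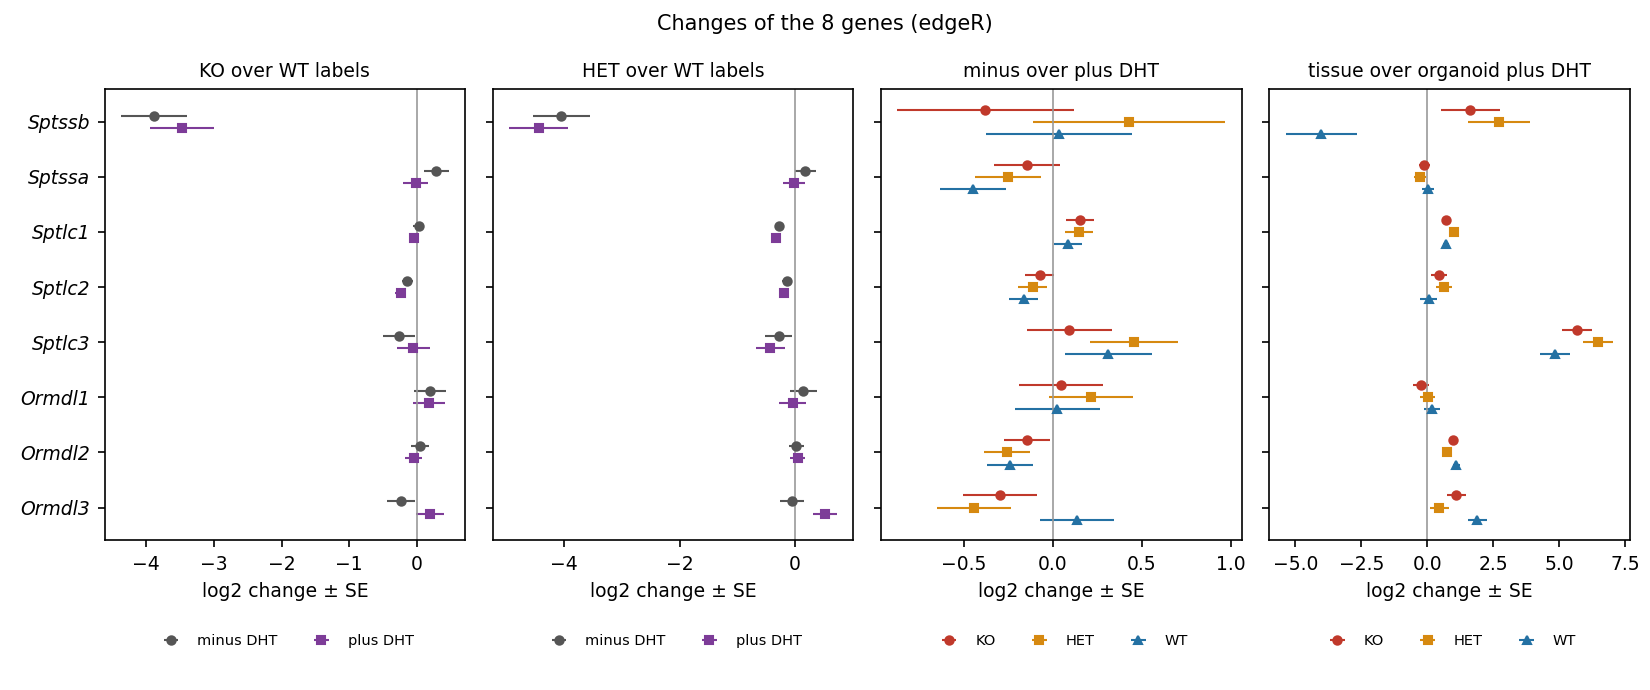
Log2 changes with their standard errors from the edgeR fits for the 8 genes, for KO over WT and HET over WT labels in organoids, minus over plus DHT within each label, and tissue over organoids with DHT. The x scales differ between panels. Sptssb stands apart for the labels, between -4.45 and -3.48, and Sptlc3 for tissue, at 4.83 or more.

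In tissue no difference between genotype labels was called for these genes. Of the 7 genes 0 were called in any of the 3 comparisons, and of all 16753 genes tested edgeR called none, or 0%, although 321, 457 and 97 had an unadjusted p under 0.05 for KO over WT, HET over WT and KO over HET, and DESeq2 called 25, 10 and 10. The median log2 change of the 7 was -0.133 for KO over WT, -0.2 for HET over WT and -0.00691 for KO over HET, against -0.0103, 0.0126 and -0.0157 over all genes. None of the 7 had an unadjusted p under 0.05, and DESeq2 called none of them. Without tissue libraries WT 2 and HET 1, a choice made after seeing the data that leaves 1 library each for 2 labels and assumes that it varies like the rest, edgeR called 82, 27 and 60 genes for the same comparisons, none of them among the 7. Sptlc3 had the widest values of the 7, 0.81 (SE 0.758) for KO over WT and 1.20 (SE 0.764) for HET over WT. Ormdl3 was at the low end of both, at -0.56 (SE 0.575) and -0.89 (SE 0.578). For KO over HET the 7 ran from -0.39 for Sptlc3 to 0.33 for Ormdl3.

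Tissue differed from organoids most clearly in Sptlc3. It stood at 29.5 and 17.9 TPM in KO-labelled, 50.8 and 18.3 TPM in HET-labelled and 21.7 and 3.83 TPM in WT-labelled tissue, and at most at 0.431 TPM in organoids with DHT. Every tissue library exceeded every organoid library. The log2 change, tissue over organoids with DHT as the mean of the 3 labels, was 5.66 (SE 0.328, edgeR adjusted p = 1.85e-08), or 50.4-fold. In the WT label alone it was 4.83, and leaving out a single library placed that value between 3.33 and 5.53. Sptlc3 held 35.3% to 59.6% of the summed TPM of Sptlc3 and coding Sptlc2 in tissue, against 2.15% to 4.94% in organoids.

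Sptlc1, Ormdl2 and Ormdl3 were also higher in tissue. Sptlc1 averaged 45.1 ± 2.95 CPM in tissue (SD, n = 6) and 26.1 ± 3 CPM in organoids with DHT (SD, n = 9), a log2 change of 0.80 (SE 0.0711, edgeR adjusted p = 7.33e-07). Ormdl2 rose by 0.94 (SE 0.0803, edgeR adjusted p = 4.8e-07), and neither gene overlapped between the materials. Ormdl3 rose by 1.14 (SE 0.209, edgeR adjusted p = 0.000309), with an overlap between libraries in CPM.

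In all, 4 of the 7 genes were called higher and none lower, where 42.1% of the 17626 genes tested were called higher and 33.3% lower, 75.4% in all, and the median of all genes was 0.19. The share called among the 7 is below that of all genes. By label, 4 of 7 were called for KO, 3 of 7 for HET and 4 of 7 for WT, all higher, against 31.4%, 31.6% and 30.8% of all genes called higher and 57.9%, 56% and 55.2% called in either direction. The Ormdl3 call for KO was lost without organoid KO library 1 with DHT or tissue KO library 2. Sptlc2 changed by 0.37 (SE 0.178, edgeR adjusted p = 0.0733), Ormdl1 by -0.02 (SE 0.171) and Sptssa by -0.12 (SE 0.127), and none of these was called by edgeR. DESeq2 called Sptlc2, at 0.41 (adjusted p = 0.0391), as did edgeR with DESeq2 size factors (adjusted p = 0.0498). Sptlc2 also hung on tissue WT library 2: without it the change was 0.56 (edgeR adjusted p = 1.3e-05), and with length offsets it was -0.01.

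Several markers of other cell types were higher in tissue. Fibroblast and smooth muscle markers summed to 422 to 1595 TPM in tissue and 7.46 to 35.5 TPM in organoids over 8 genes, and endothelial markers to 22.8 to 32.7 TPM and 1.58 to 7.84 TPM over 4 genes. Leukocyte markers overlapped as a sum, at 44.2 to 163 TPM in tissue and 55.9 to 120.3 TPM in organoids over 5 genes: Cd68 was called lower in tissue and the other 4 higher. Basal markers were higher in organoids, with 155 to 1734 TPM in tissue and 2133 to 4031 TPM in organoids over 5 genes. Luminal markers were 3140 to 4478 TPM in tissue and 2340 to 3409 TPM in organoids over 7 genes, so both materials held luminal epithelial transcripts. The part of these cells in the tissue values was not tested. Without tissue libraries WT 2 and HET 1 the Sptlc3 change was 5.63 (edgeR adjusted p = 5.39e-12).

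The wider pathway was read from 6 lists of genes, chosen with earlier results known. The counts below stand against the shares of all genes called, which without and with DHT were 4.8% and 4.11% for KO over WT, 7.81% and 7.51% for HET over WT and 2.92% and 3.54% for KO over HET. Downstream of the enzyme, ceramide assembly runs through Kdsr, the ceramide synthases Cers1 to Cers6 and the desaturases Degs1 and Degs2. Without DHT, HET over WT called 1 of its 9 tested genes higher, Degs2 (1.14), and 1 lower, Cers6 (-0.47), and with DHT it called Cers6 (-0.41) alone. KO over WT called Cers3, a synthase of very long chain ceramides, lower in both media (-0.36 without and -0.35 with DHT), and Degs1 higher with DHT (0.43, edgeR adjusted p = 0.0102). Kdsr, which reduces the first product of the enzyme, was higher in KO than in HET organoids by 0.40 without and 0.41 with DHT. Each of these calls was lost on leaving out at least 1 library.

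Among the genes that break ceramide down or build on it, the calls that held best were in Acer2 and Sgms2. Acer2, a ceramidase of the Golgi and 1 of 17 breakdown genes tested, stood at 7.29 to 9.32 TPM in KO-labelled, 18.8 to 28.5 TPM in HET-labelled and 8.57 to 9.34 TPM in WT-labelled organoids without DHT. HET over WT was 1.27 (SE 0.125, edgeR adjusted p = 8.13e-06) without and 1.11 (SE 0.126, edgeR adjusted p = 4.09e-05) with DHT. KO over HET was -1.45 without and -1.19 with DHT, and all 4 calls held in the 18 fits that left out a library, though that for KO over HET without DHT was lost in a fit of only the groups compared. The HET-labelled libraries lay above both other labels in each medium. KO over WT called the sphingomyelinase gene Smpd3 with DHT (-0.98), and this call was lost in most such fits.

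Sgms2, a sphingomyelin synthase and 1 of 14 genes tested for complex sphingolipids, stood at 18.8 to 23.5 TPM in KO-labelled, 22 to 27.7 TPM in HET-labelled and 10.4 to 16.5 TPM in WT-labelled organoids without DHT. KO over WT was 0.87 and HET over WT 1.00 in that medium, and HET over WT was 0.73 with DHT. The HET call without DHT held in all 18 such fits, and the other 2 did not. HET over WT also called the glycolipid carrier gene Plekha8 higher, by 0.37 without and 0.39 with DHT, and the ceramide 1-phosphate carrier gene Cptp lower with DHT (-0.53). KO over HET called St3gal5 without DHT (2.18). It was very low there, at 0.264 to 0.574 TPM in KO-labelled and 0.021 to 0.0805 TPM in HET-labelled organoids, so this change is imprecise. Of the 18 fits that left out a library, the Plekha8 call was lost in 15 without DHT and in 11 with DHT. The Cptp call was lost in 6 and the St3gal5 call in 5.

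Of 7 serine supply genes, Psat1 of serine synthesis was the 1 called between labels. It was higher in HET-labelled than in WT-labelled organoids by 0.30 without and 0.26 with DHT. KO over HET was -0.47 without and -0.41 with DHT, and both of these calls held in all 18 fits. Of 10 genes of acyl-CoA supply, KO over WT called Scd2, a fatty acid desaturase, at -0.62 without DHT (edgeR adjusted p = 0.00046) and -0.42 with DHT, and Elovl6, which elongates palmitate, at -0.38 and -0.41. HET over WT called Acaca, which makes malonyl-CoA for fatty acid synthesis, at -0.43 in both media, Elovl6 at -0.43 with DHT, and Scd2 at -0.35 and Acsl5 at 0.28 without DHT. Of 11 genes of sphingosine 1-phosphate signalling, HET over WT called the kinase gene Sphk1 without DHT (-1.09) and the receptor gene S1pr1 with DHT (-1.93). S1pr1 was low there, at 0.14 to 0.213 TPM in HET-labelled and 0.639 to 0.714 TPM in WT-labelled organoids, so its change is imprecise. Of the calls in this paragraph, those of Psat1 for KO over HET and Scd2 for KO over WT without DHT held in all 18 fits, but both calls without DHT were lost in a fit of only the groups compared.

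On DHT withdrawal, as the mean of the 3 labels, 4.96% of all genes were called. In the pathway lists no gene was called for breakdown (0 of 17), sphingosine 1-phosphate signalling (0 of 11) or acyl-CoA supply. In the other lists 1 of 9 genes of ceramide assembly, 1 of 14 of complex sphingolipids and 1 of 7 of serine supply were called, all lower. They were B4galt6, a lactosylceramide synthase (-0.55, edgeR adjusted p = 0.0017), Cers3 (-0.25, edgeR adjusted p = 0.00225) and Psat1 (-0.21, edgeR adjusted p = 0.00541), and each held in all 18 fits that left out a library, while that of Cers3 was lost with length offsets. B4galt6 was also called in WT-labelled organoids alone (-0.80, edgeR adjusted p = 0.0173), where it stood at 3.36 to 3.97 TPM without DHT and 5.28 to 6.57 TPM with DHT. This call was lost in 4 of the 18 fits that left out a library, with adjusted p-values up to 0.116, and in a fit of only the groups compared.

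In tissue, 7 of 10 genes of ceramide assembly were called higher and 2 lower than in organoids with DHT, with a list median of 1.2 against 0.19 for all genes. Here and in the lists that follow, 42.1% of all genes were called higher and 33.3% lower. Degs2, the desaturase that also makes phytoceramide, stood at 97.3 to 173 TPM in tissue and 3.01 to 7.45 TPM in organoids with DHT, a log2 change of 4.39 (SE 0.187, edgeR adjusted p = 1.47e-09). Cers4 changed by 3.15 and Degs1 by 1.49. For complex sphingolipids 6 of 15 were higher and 5 lower, with St3gal5 at 3.42, Cptp at 1.01 and the glycolipid carrier gene Gltp at -1.41. For breakdown 9 of 17 were higher and 3 lower, with Smpd2 at 2.35, Gba2 at 1.95 and Smpd1 at 1.53.

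For sphingosine 1-phosphate signalling 8 of 11 were higher in tissue and 1 lower, with the phosphatase gene Plpp3 at 2.35 and the receptor genes S1pr1 at 1.96 and S1pr2 at -1.21. Endothelial cells, whose markers were higher in tissue, are known to express S1pr1, and their part in this value was not tested. Of serine supply 3 of 7 were higher and 4 lower, with Shmt1 at 1.66, Psat1 at -2.72 and the serine carrier gene Slc1a4 at -1.28. Of acyl-CoA supply 2 of 11 were higher and 5 lower, with Acsl1 at 1.44, Acaca at -1.03 and Acsl4 at -1.73. All of the tissue calls named here held in the 15 fits that left out a library.

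The genes whose pattern was most like that of Sptssb were chosen by the Pearson correlation of log2 CPM over the 18 organoid libraries, among 9924 genes averaging at least 5 CPM. They were Trmt2b (r = 0.971), Zfp532 (0.948), Dmkn (0.942), Cyp4f39 (0.928) and St6galnac2 (0.925), and the most opposed were Spry4 (-0.971), Slc14a1 (-0.959) and Gpa33 (-0.957). The libraries share their groups and depths, and with the 6 group means removed r of the first 5 was between 0.121 and 0.625. Dmkn, a skin differentiation gene, averaged 21 and 20.3 TPM in KO-labelled, 16 and 13.5 TPM in HET-labelled and 45.9 and 58.6 TPM in WT-labelled organoids without and with DHT. Among the genes of the enzyme, r with Sptssb ran from -0.223 for Ormdl1 to 0.583 for Sptlc2 and Sptlc3.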

How the data were processed

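RNA from 6 anterior lobe tissue libraries and 18 organoid libraries was analysed. Each deposited file lists 116945 transcripts with lengths, estimated counts of reads and TPM, per the file headers. The submitters' processing notes name Salmon 0.13.1, the tool with which the authors made the estimated counts and TPM, and they name hg38, whereas the transcript identifiers are those of mouse. The index annotation, strandedness and trimming are not given in the sources used here. Salmon divides reads among similar transcripts, so transcript values are less certain than gene sums.

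Estimated counts and TPM were summed per gene with GENCODE mouse release 21, ignoring transcript versions. The 922 transcripts without a match held at most 0.3266% of a library's reads and were left out. Counts were rounded, scaled by TMM and tested with edgeR 4.0.16 in R 4.3.3 (quasi-likelihood F-test, filterByExpr, Benjamini-Hochberg over all genes tested). Organoids (15427 genes, 12 residual degrees of freedom), tissue (16753 genes, 3) and tissue with DHT organoids (17626 genes, 9) were fitted apart, with 1 mean per group. SE is that of the log2 change in the edgeR fit. CPM are TMM-scaled. The first comparison of each fit was run on simulated counts, with the spread taken from the same data. Other comparisons were not checked in this way.

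All 8 genes were to be named in every comparison, some here by range, and from each pathway list up to 3 called genes with the lowest p, of which 1 is not reported here. The members and lists were chosen with earlier results of these data known. DESeq2 1.42.0, other size factors, filters, length offsets, log2(TPM + 0.1), the replicate block, a mitochondrial covariate and leaving out libraries were tried as alternatives. Leaving tissue libraries WT 2 and HET 1 out of the tissue fit was chosen after seeing the data. Depth limits Sptssb in KO- and HET-labelled organoids and Sptlc3 in all organoids, and read numbers cover counting error only.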

Additional observations from a re-analysis of the deposited data

How the results depend on the processing

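Calls among the 7 genes other than Sptssb moved in these cases. With the mitochondrial share as a covariate, calls on DHT withdrawal became 1 in HET-labelled, 1 in WT-labelled and 3 for the mean of the labels, against 0 each. DESeq2, and leaving out the 3 shallowest organoid libraries, gave 1 for that mean. For KO over WT with DHT the covariate gave 1 call, against 0. For KO over HET with DHT, DESeq2, DESeq2 size factors, the 1 CPM filter, the covariate and leaving out those 3 libraries each gave 1 call, against 0, and leaving out single libraries gave 0 to 1. For KO over HET without DHT, DESeq2, DESeq2 size factors, the 1 CPM filter and the covariate each gave 1, against 0. For HET over WT with DHT, no filter and a fit of only the groups compared gave 0 calls and the covariate gave 2, against 1, and single libraries gave 0 to 1. For HET over WT without DHT, no filter, length offsets, the replicate block, leaving out the 3 libraries and a fit of only the groups compared gave 0, against 1, and single libraries gave 0 to 1. For tissue over organoids in the HET label, leaving out tissue WT 2 and HET 1 gave 5, against 3; it also gave 5, against 4, in the KO and WT labels and for their mean, where DESeq2 gave 5 as well.

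In organoids Sptssb kept its direction for KO over WT and HET over WT in every alternative run. KO over WT with DHT was -2.78 on log2(TPM + 0.1), and HET over WT without DHT was -4.94 with length offsets and -4.57 on log2(TPM + 0.1). For tissue over organoids in the HET label, Sptssb reversed to -1.33 without tissue WT 2 and HET 1, and ranged from -1.33 to 3.67 with single libraries left out. Sptlc2 in the WT label ranged from -0.97 to 0.62 in the same way. The causes were not tested.

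In 17 of 45 organoid pairs of same-numbered libraries the correlation of deviations was over 0.1. The lowest values were -0.517 for KO with WT and -0.506 for HET with WT, both in libraries numbered 3 without DHT. All 3 pairs were over 0.1 for KO with HET without DHT (0.231 to 0.691), the only such case among groups compared here within organoids; there the block called 532 genes, against 450, and 0 of the 7, and lost no pathway call. In tissue the 2 libraries of a label mirror each other, which leaves 3 values, -0.209, 0.109 and 0.408. These differ in sign and are too few to decide whether the numbers pair the tissue libraries. Of the 13758 genes averaging at least 1 TPM in tissue, 33.7% were higher and 9.1% lower in library 1 in all 3 labels. With the replicate block, HET over WT with DHT gave 2 calls, Sptlc1 and Ormdl3 (0.52, edgeR adjusted p = 0.0318), and HET over WT without DHT gave 0. Over all genes the block gave 1333 calls with DHT, against 1158, and 1371 without, against 1205. On withdrawal in the HET label the block called 167 genes, against 109. DESeq2 called 281, 297, 396 and 1164 genes on withdrawal in KO, HET, WT and their mean, against 86, 109, 200 and 765; 1164 and 989 for KO over WT without and with DHT, against 741 and 634; and 800 and 988 for KO over HET, against 450 and 546. The mitochondrial covariate called 465, 293, 719 and 3267 genes on withdrawal, 1653 and 1381 for KO over WT, 2281 and 2727 for HET over WT and 1319 and 1582 for KO over HET. Fits of only the groups compared called 12, 0 and 94 on withdrawal in KO, HET and WT, 201 for KO over WT, 398 for HET over WT and 27 for KO over HET without DHT, and 1238 for KO over HET with DHT. Leaving out the 3 shallowest organoid libraries called 332 on withdrawal in WT and 1049 for KO over HET with DHT, and length offsets 274 for KO over HET without DHT. In tissue no filter called 1 gene for KO over WT and 2 for HET over WT, against 0 each. Read numbers limit Sptssb in KO- and HET-labelled organoids and Sptlc3 in all organoids, and 2 libraries per label limit every comparison in tissue.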
